A study of Mus musculus with 88 samples.

Results

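The Zfp genes, the mouse genes whose symbol is Zfp followed by a number, were followed in a macrophage cell line over the first hours after lipopolysaccharide. They were found by symbol alone, through the current names of the array's gene identifiers, with Zfp36, Zfp36l1 and Zfp36l2 set aside as a separate family of mRNA decay factors. The rule found 90 Zfp genes, and 79 of them had a value other than 0 on at least 44 of the 88 arrays and were kept. That is 87.8% of the Zfp genes, against 81.7% of all 10518 genes tested (8589 genes). Of the 11 genes left out, 1 was listed at 0 on every array. All 79 genes are listed as protein coding in RefSeq, and 48 of them had a value other than 0 on all 88 arrays.

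The cells were RAW 264.7, a mouse macrophage-like line derived from an Abelson virus-induced tumour, grown in culture with no genetic change named in the labels. Cells given LPS, a cell-wall component of Gram-negative bacteria that signals through Tlr4, received 100 ng/ml with 100 pM of a binding protein. The labels call it lipid binding protein, and it is taken here to be LPS-binding protein. Isoproterenol (ISO), a beta-adrenergic agonist, was given at 50 nM, and prostaglandin E2 (PGE2) at 10 uM. Cells given LPS with ISO or LPS with PGE2 received the same doses, and their labels do not name the binding protein. Each treatment lasted 1, 2 or 4 h and was set, on one array, against cells left in medium for as long, in 2 dye orientations. The labels number 3 sets of 2 arrays for each of the 15 groups (PGE2 at 1 h has 2), 44 sets in all, and do not say whether sets came from separate cultures, so that p-values measure set-to-set spread only, which may be of technical origin. They also do not say whether the treatments of one time and set shared the same medium RNA.

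Most Zfp proteins are built from tandem C2H2 fingers, each of which folds around a zinc ion and reads a few bases of DNA. Many also carry a KRAB domain, which binds the corepressor Trim28 (KAP1), and Trim28 in turn brings the histone methyltransferase Setdb1 and HP1 proteins to silence the bound DNA, often transposable elements. Other members lack KRAB and act as ordinary transcription factors, or bind RNA or ribosomal particles. Domain content was not examined here, so membership rests on the names. Each value below is a log2 ratio of treated over medium, averaged first over the 2 arrays of a set and then over the sets of a group, with the SD over sets. A gene is called higher or lower where its limma p, adjusted by Benjamini-Hochberg over all 10518 genes, is under 0.05.

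The ratios ran in the direction of the labels: a list of 18 LPS-induced genes had a median above 0 on 18 of 18 arrays with LPS alone, between 1.49 and 3.25. The 2 arrays of a set correlated over all probes, after turning, at r from 0.18 to 0.84 in the 27 sets with LPS, and from −0.59 to 0.31 in the 17 sets without it, 10 of which lay below 0. Values of exactly 0 made up 10.9% to 45.7% of an array, and what 0 stands for is not stated in the sources used here. A ratio gives no level. Among macrophage markers Csf1r, Cd68 and Spi1 had values other than 0 on all 88 arrays, but Lyz2 on only 6. Itgam was not on the array as a single gene. The neural marker Ncam1 also had values on all 88 arrays, so that the cell type could not be checked from ratios.

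At 1 h after LPS, 22 of the 79 Zfp genes were lower than in medium and 1 was higher. Those 22 are 27.8% of the Zfp genes, beside 4.84% of all genes tested that were lower and 4.64% that were higher, and beside 5.86% of the 8589 genes past the same filter that were lower. The median Zfp gene stood at −0.13, with quartiles of −0.42 and −0.04, where the median of the 8589 genes was 0.00. The Zfp median lay below 0 in each set, at −0.27, −0.11 and −0.15. In all, 65 Zfp genes (82.3%) had a mean below 0, against 49.6% of the 8589 genes. The 22 lower genes ranged from −1.17 to −0.29 with a median of −0.60, had the same sign in every set, and 3 of them were lower by at least 2-fold. The 15 calls of the 23 that held with any 1 set left out include Zfp287, Zfp958, Zfp398, Zfp120, Zfp87, Zfp53, Zfp292, Zfp90, Zfp788 and Zfp810. Fitted on the 3 sets of this group alone, limma called 0 of the 79 genes, with 26 at an unadjusted p under 0.05, of which 24 were lower. For fits on the compared groups alone, here and below, counts over all genes were not taken. Whether the few calls of such fits are particular to the Zfp genes was not tested.

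**Figure D1:**
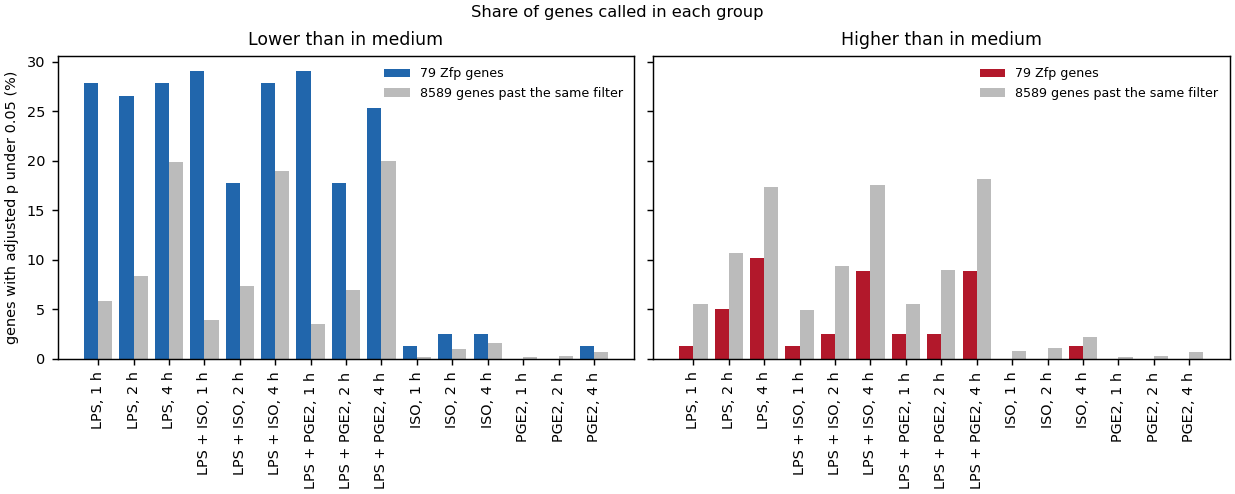
Percent of genes called lower (left) or higher (right) than in medium in each of the 15 groups, for the 79 Zfp genes (coloured bars) and the 8589 genes past the same filter (grey bars, which include the Zfp genes). At 1 h after LPS 27.8% of the Zfp genes were lower against 5.86% of the 8589 genes, and at 4 h 27.8% against 19.9%.

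The lowest of all at 1 h was Zfp287, a KRAB zinc-finger gene, at −1.69, −0.78 and −1.02 in sets 1, 2 and 3. Its mean of −1.17 ± 0.47 (SD, n = 3) was a 2.24-fold fall (adjusted p = 3.67e-08). All 3 sets were lower, set 1 the most. Zfp958 measured −1.29, −0.80 and −1.27, a mean of −1.12 ± 0.28 (SD, n = 3) and a 2.17-fold fall (adjusted p = 1.5e-06). Zfp398, another KRAB member, measured −0.92, −1.37 and −1.06, a mean of −1.12 ± 0.23 (SD, n = 3; adjusted p = 1.15e-05). These were the 3 genes past 2-fold.

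Zfp120 followed at −1.61, −0.49 and −0.71, a mean of −0.94 ± 0.60 (SD, n = 3; adjusted p = 1.52e-05), with set 1 far below the other two. Zfp87 stood at −1.05, −0.55 and −0.70 (mean −0.77 ± 0.26, SD, n = 3; adjusted p = 1.44e-08). Zfp90, a KRAB gene, stood at −0.70, −0.46 and −0.96 (mean −0.71 ± 0.25, SD, n = 3; adjusted p = 6.59e-06). For each of these genes every set was below 0.

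The remaining lower genes at 1 h were Zfp24, Zfp28, Zfp35, Zfp40, Zfp53, Zfp54, Zfp60, Zfp93, Zfp94, Zfp101, Zfp292, Zfp329, Zfp346, Zfp386, Zfp788 and Zfp810, with means between −0.76 (Zfp94) and −0.29 (Zfp386). Several of these calls ended with some set left out. With set 1 left out, Zfp346 gave −0.34 (adjusted p = 0.0968), Zfp35 −0.15 (adjusted p = 0.74), Zfp93 −0.41 (adjusted p = 0.233), Zfp40 −0.53 (adjusted p = 0.0835), Zfp24 −0.28 (adjusted p = 0.155) and Zfp386 −0.25 (adjusted p = 0.338). With set 3 left out, Zfp94 gave −0.57 (adjusted p = 0.133) and Zfp54 −0.57 (adjusted p = 0.073). Zfp24, Zfp40 and Zfp93 also lost their calls without set 3 (adjusted p = 0.0844, 0.0879 and 0.0843). Zfp386 lost its call without set 2 and without set 3 as well (adjusted p = 0.0544 and 0.132). Most Zfp genes had 1 probe, and where 2 probes of a lower gene existed they did not always move together. The probes of Zfp60 gave −1.0005 and 0.0852 at 1 h, and those of Zfp292 gave −1.11 and −0.33. Of the Zfp101 probes, 1 gave −0.67 and the other, which had a value other than 0 on only 3 arrays, gave 0.00, so that the mean of −0.34 is drawn toward 0. Probe letters were not used here, and whether a probe of one member also binds the transcript of a close relative was not tested.

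The single gene that was higher at 1 h was Zfp593, a small zinc-finger protein of 60S ribosome maturation. It measured 1.37, 0.56 and 0.83 (mean 0.92 ± 0.41, SD, n = 3; adjusted p = 6.16e-06), a 1.89-fold rise. The other 56 genes ranged from −0.45 to 0.24 and did not pass, their median lying at −0.09.

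**Figure D2:**
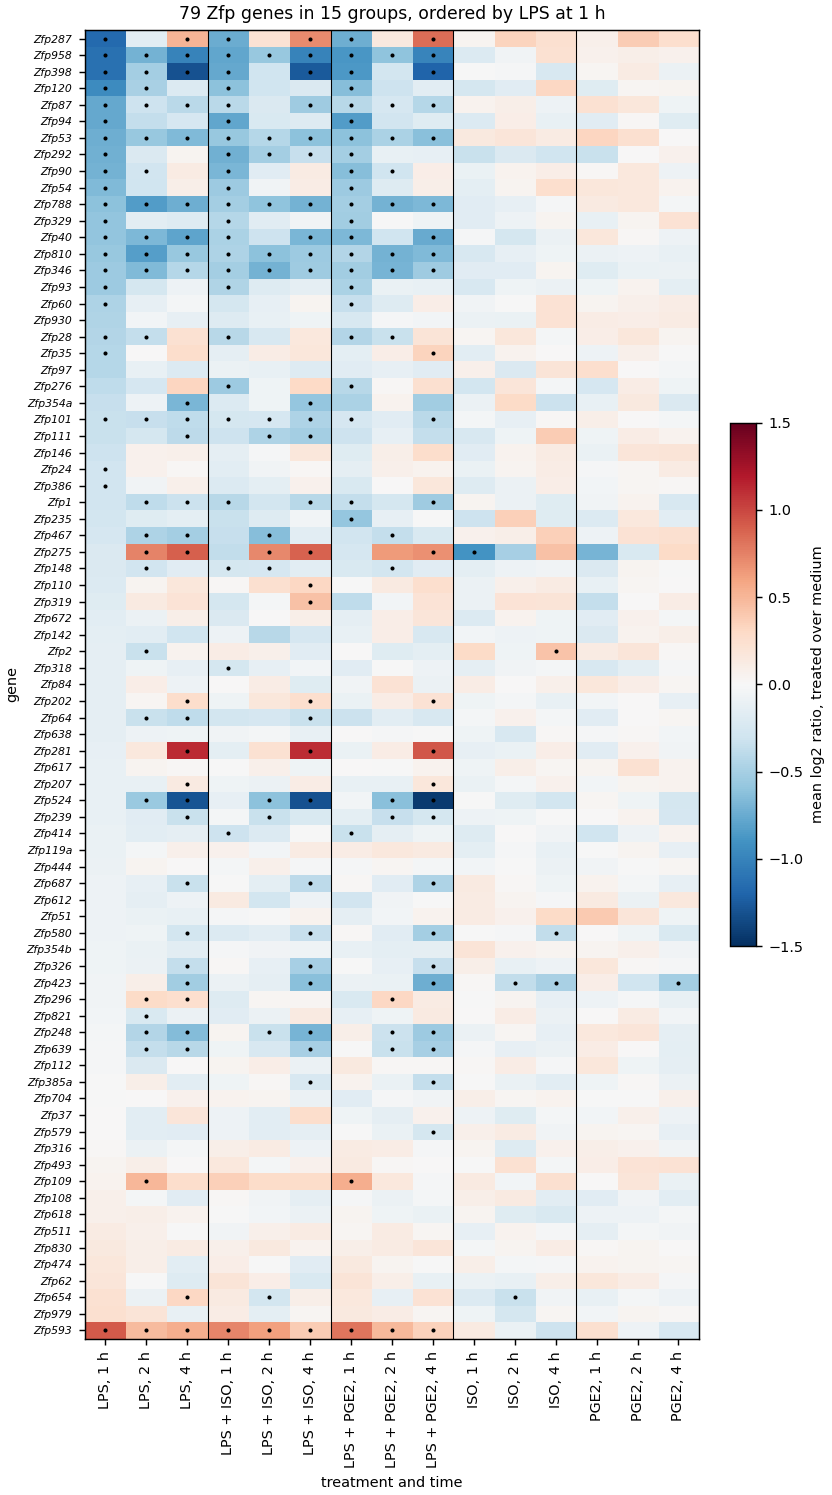
Mean log2 ratio of treated over medium for each of the 79 Zfp genes (rows, ordered by LPS at 1 h) in the 15 groups (columns). Blue is lower and red higher than medium, and a black dot marks an adjusted p under 0.05; the columns with LPS at 1 h are blue for most of the upper rows, and the columns of ISO or PGE2 alone hold 7 dots in all.

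The letters just before the start of the genes that led at each time are shown because 2 of the early-falling genes, Zfp958 and Zfp120, hold the same motifs in the same order there. They are the 100 bases before the RefSeq start (first start listed) of the 4 lowest genes at 1 h, of Zfp788, the lowest at 2 h, and of Zfp281, the highest at 4 h, all 5′ to 3′ on the gene's strand in GRCm38.p6. Capitals mark the CCAAT box, the ETS-type core CCGGAAG, the GC box GGGCGG and the cAMP response element core TGACG, each searched on both strands. The positions are chr11:62731897-62731996 on the minus strand for Zfp287, chr8:4613070-4613169 on the plus strand for Zfp958, chr6:47835561-47835660 on the plus strand for Zfp398, chr2:150136679-150136778 on the minus strand for Zfp120, chr7:41633431-41633530 on the plus strand for Zfp788 and chr1:136624801-136624900 on the plus strand for Zfp281.
Zfp287: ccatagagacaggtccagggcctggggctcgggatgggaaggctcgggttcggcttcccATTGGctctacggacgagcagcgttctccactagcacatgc
Zfp958: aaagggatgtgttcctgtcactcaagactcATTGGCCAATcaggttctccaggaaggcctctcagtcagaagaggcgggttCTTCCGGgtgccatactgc
Zfp398: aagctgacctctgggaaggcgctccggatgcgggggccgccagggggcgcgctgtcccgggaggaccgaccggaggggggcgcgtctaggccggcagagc
Zfp120: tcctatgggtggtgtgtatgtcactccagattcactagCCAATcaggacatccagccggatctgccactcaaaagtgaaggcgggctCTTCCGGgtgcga
Zfp788: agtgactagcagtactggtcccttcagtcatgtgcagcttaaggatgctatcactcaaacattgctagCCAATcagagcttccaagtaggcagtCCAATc
Zfp281: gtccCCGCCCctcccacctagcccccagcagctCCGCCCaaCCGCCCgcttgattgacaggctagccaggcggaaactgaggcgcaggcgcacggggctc

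Zfp958 and Zfp120 each held CCAAT and, further on, CTTCCGG, the other strand of CCGGAAG; Zfp788 held 2 CCAAT and no CCGGAAG; Zfp281 held 3 GC boxes and Zfp287 and Zfp398 none. Over the RefSeq windows from 250 bases before to 50 after a start (62 of the 79 genes matched, with 80 starts), CCGGAAG was in 30.4% of the 23 windows of the genes lower at 1 h after LPS and in 15.8% of the 57 windows of the other members. It was in 14.2% of the 8795 windows of all genes past the filter and in 8.9% of all 32851 windows. GGGCGG was in 30.4% of the windows of the lower genes, 59.6% of those of the other members, 55.3% of those of genes past the filter and 35.7% of all. CCAAT, added after the sequences were seen, was in 52.2%, 38.6%, 37.6% and 37.4% in the same order. TGACG was in 30.4%, 22.8%, 28.2% and 20.8%, and the full palindrome TGACGTCA in none of the 80 member windows against 1.8% of all. Starts of 1 gene share letters, and these shares are descriptions of letters only.

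At 2 h after LPS, 21 of the 79 Zfp genes were lower and 4 were higher, beside 7.01% lower and 8.88% higher of all genes. The lower genes were 26.6% of the Zfp genes. The members' median was −0.12 against 0.00 for the 8589 genes, and in the sets it was 0.01, −0.14 and −0.16, so that set 1 did not share the shift. Without set 1 the count called fell from 25 to 14, and without set 3 to 11. In this group too the fit on its own 3 sets called 0 members, with 28 at an unadjusted p under 0.05.

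The lowest gene at 2 h was Zfp788, at −0.66, −0.91 and −0.94 (mean −0.83 ± 0.15, SD, n = 3; adjusted p = 8.36e-06). Zfp810 stood beside it at −0.70, −0.92 and −0.88 (mean −0.83 ± 0.12, SD, n = 3; adjusted p = 1.21e-08). Both were already lower at 1 h, at −0.61 and −0.57. Zfp958 gave −0.35, −0.82 and −0.98 (mean −0.71 ± 0.33, SD, n = 3; adjusted p = 0.000483), less far below medium than at 1 h in sets 1 and 3. Zfp40 gave −0.80, −0.67 and −0.55 (mean −0.67 ± 0.13, SD, n = 3; adjusted p = 0.000411). Zfp346 (JAZ), which binds double-stranded RNA, gave −0.83, −0.69 and −0.46 (mean −0.66 ± 0.18, SD, n = 3; adjusted p = 1.26e-05). The 4 higher genes were Zfp593, Zfp275, Zfp109 and Zfp296. Zfp275 gave 0.86, 0.24 and 1.13 (mean 0.74 ± 0.46, SD, n = 3; adjusted p = 0.0219), and without set 3 it fell to 0.55 (adjusted p = 0.248). Zfp109 gave 0.13, 0.67 and 0.70 (mean 0.50 ± 0.32, SD, n = 3; adjusted p = 0.0189), and without set 3 it was 0.40 (adjusted p = 0.196).

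At 4 h, 22 Zfp genes were lower and 8 higher, beside 16.4% lower and 14.3% higher of all genes. The share of lower Zfp genes was again 27.8%, now against 19.9% of the 8589 genes, and the share of higher ones was 10.1% against 17.3%. The members' median was −0.11 against −0.01, and 48 of the 79 (60.8%) were below 0 against 52.9%. So the share of lower Zfp genes was the same at 1 and 4 h, while that of all genes was 4.84% at 1 h and 16.4% at 4 h. The fit on the 3 sets of this group alone called 8 members.

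Zfp398 was the lowest at 4 h, at −1.39, −1.13 and −1.40 (mean −1.31 ± 0.15, SD, n = 3; adjusted p = 7.59e-08), a 2.47-fold fall. Zfp524 was next at −1.61, −1.11 and −1.17 (mean −1.29 ± 0.28, SD, n = 3; adjusted p = 1.12e-10), a 2.45-fold fall. These 2 genes differed at 1 h, when Zfp398 was at −1.12 and Zfp524 at −0.11. Zfp958 gave −0.82, −0.86 and −1.31 (mean −0.999 ± 0.27, SD, n = 3; adjusted p = 1.24e-06), and Zfp40 gave −0.86, −0.53 and −0.98 (mean −0.79 ± 0.23, SD, n = 3; adjusted p = 1.56e-05).

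The highest gene at 4 h was Zfp281, a factor that binds GC-rich boxes and is best known from embryonic stem cells. Its sets were close together at 1.10, 1.09 and 1.17 (mean 1.12 ± 0.04, SD, n = 3; adjusted p = 1.02e-10), a 2.17-fold rise. Zfp275 gave 0.20, 1.31 and 1.17 (mean 0.90 ± 0.61, SD, n = 3; adjusted p = 0.00233), and without set 2 it was 0.69 (adjusted p = 0.0697). Zfp593 was still higher at 0.31, 0.77 and 0.55 (mean 0.54 ± 0.23, SD, n = 3; adjusted p = 0.00119). The other higher genes at 4 h were Zfp287, Zfp202, Zfp207, Zfp296 and Zfp654, from 0.14 (Zfp207) to 0.50 (Zfp287).

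Some of the genes lower at 1 h were lower at 4 h too. Each time has its own medium cells. Of the 22 genes lower at 1 h, 9 were lower at 4 h (40.9% of either list), 12 were not called and 1, Zfp287, was higher. Of the 503 genes past the filter that were lower at 1 h, 43.7% were lower at 4 h, a share close to that of the Zfp genes, 46.1% were not called and 10.1% were higher. Those 220 genes were 12.9% of the 1709 that were lower at 4 h. With LPS and ISO, 47.8% of the Zfp genes lower at 1 h were lower at 4 h, against 60.6% of such genes past the filter. With LPS and PGE2 these shares were 43.5% and 55.4%. The median over the 22 genes with LPS alone went from −0.60 at 1 h through −0.33 to −0.20 at 4 h. Since they were picked by their 1 h values, that course is a description. The calls with LPS alone sort into several courses, grouped here after the values were seen. The share of all genes with each course was not taken.

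**Figure D3:**
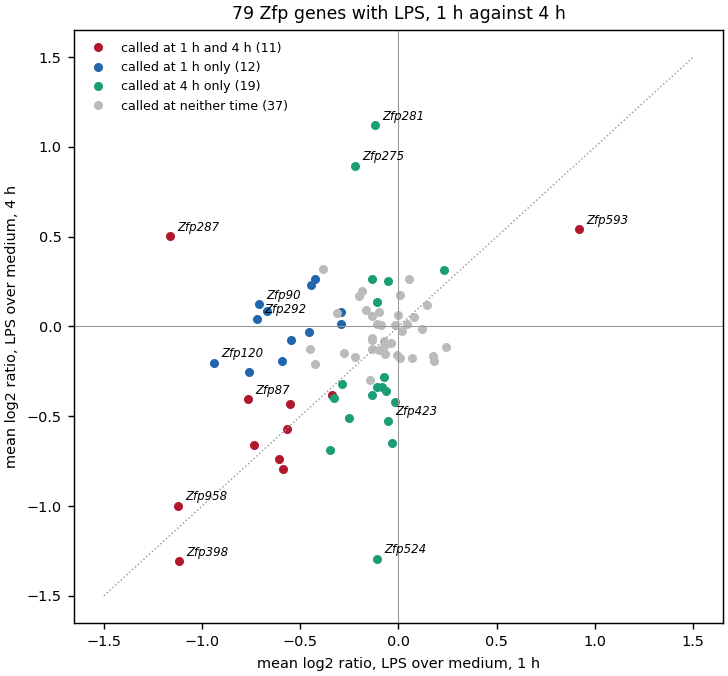
Mean log2 ratio of LPS over medium at 4 h against 1 h for the 79 Zfp genes; colours show at which of these times a gene was called, with the number of genes, and the dotted line marks equal values. Of the genes called at 1 h, 11 were also called at 4 h, with Zfp287 alone in the upper left; Zfp281, Zfp275 and Zfp524 lie near 0 at 1 h and far from it at 4 h.

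A lasting fall, with a call at all 3 times, was seen for 9 genes: Zfp40, Zfp53, Zfp87, Zfp101, Zfp346, Zfp398, Zfp788, Zfp810 and Zfp958. Among these Zfp53 was at −0.73, −0.57 and −0.66 at 1, 2 and 4 h and Zfp101 at −0.34, −0.34 and −0.38. Zfp87 was at −0.77, −0.31 and −0.40 at the same times. Without set 2 or without set 3 its 2 h value lost its call, at −0.28 (adjusted p = 0.0575 and 0.0671). The 2 h calls of Zfp398 and Zfp101 also ended without set 1, at −0.49 (adjusted p = 0.147) and −0.29 (adjusted p = 0.0537), and that of Zfp398 without set 3, at −0.42 (adjusted p = 0.216).

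A fall at 1 and 2 h but not at 4 h was seen for Zfp28, Zfp90 and Zfp120. Zfp90 went from −0.71 at 1 h to −0.29 at 2 h and 0.12 at 4 h, and its 2 h call ended with any 1 set left out, from −0.36 to −0.17. Zfp28, a KRAB gene, went from −0.44 to −0.36 and 0.23, its last value short of the threshold (adjusted p = 0.0636); its 2 h call ended without set 1 (−0.28, adjusted p = 0.13). Zfp120 was at −0.49 at 2 h, a call that ended without set 3 (−0.42, adjusted p = 0.136), and at −0.20 at 4 h. A fall called at 1 h alone was seen for 9 genes: Zfp24, Zfp35, Zfp54, Zfp60, Zfp93, Zfp94, Zfp292, Zfp329 and Zfp386. The calls of Zfp24, Zfp35, Zfp54, Zfp93, Zfp94 and Zfp386 each ended with some set left out, and Zfp35 went from −0.42 to −0.15 (adjusted p = 0.74) without set 1. Zfp292, a large DNA-binding factor, measured −0.73, −0.82 and −0.61 at 1 h (mean −0.72 ± 0.11, SD, n = 3; adjusted p = 0.000167). Its means at 2 and 4 h were −0.22 and 0.04.

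A later fall, called at 2 h, 4 h or both but not at 1 h, was seen for 16 genes. Among those that also differed between 1 h and later by the test of that difference, Zfp524 and Zfp248 changed most. Zfp524 fell from −0.11 at 1 h to −0.56 at 2 h, a call that ended without set 1 (−0.40, adjusted p = 0.0672), and to −1.29 at 4 h. Zfp248 went from −0.03 to −0.44, a call that ended without set 3 (−0.36, adjusted p = 0.0935), and to −0.65. Also in this class were Zfp64, Zfp148 (ZBP-89, a GC-rich DNA binder), Zfp326 (a subunit of the DBIRD complex, which couples transcript elongation to splicing), Zfp423 (an Ebf partner of the fat-cell lineage) and Zfp687. Of the 16 genes with a later fall, only Zfp248, Zfp423, Zfp467, Zfp524, Zfp639 and Zfp687 had a call that held with any 1 set left out. A rise at 2 or 4 h with no call at 1 h was seen for 7 genes. Of those, only Zfp281 had a call that held with any 1 set left out. Each call of Zfp109, Zfp202, Zfp207, Zfp275, Zfp296 and Zfp654 with LPS alone ended without some set. With LPS, 33 of the 79 genes were called at no time.

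The difference between 1 h and the mean of 2 and 4 h was tested directly. With LPS, 13 Zfp genes were lower at 1 h than later and 3 were higher, beside 7.91% and 6.28% of all genes. Of these 16 calls, 4 held with any 1 set left out (6 in all were called without set 1). Zfp287 differed most, by −1.34 ± 0.15 (SE; 95% interval −1.65 to −1.03; adjusted p = 1.34e-07), going from below medium in every set at 1 h to above it in every set at 4 h. Zfp275 differed by −1.04 (95% interval −1.61 to −0.47; adjusted p = 0.0094), and −0.96 (adjusted p = 0.0622) without set 1. Zfp281 differed by −0.76 (95% interval −1.02 to −0.50; adjusted p = 4.36e-05). Both of these were not called at 1 h after LPS and were higher than medium at 4 h. Zfp90 differed by −0.63 (95% interval −0.88 to −0.37; adjusted p = 0.000392) and Zfp292 by −0.63 (95% interval −0.95 to −0.32; adjusted p = 0.0041; −0.52 and adjusted p = 0.0955 without set 1), both called lower at 1 h and not at 4 h. The 3 genes that were higher at 1 h than later were the late-falling Zfp524 by 0.82 (95% interval 0.52 to 1.12), Zfp248 by 0.51 (95% interval 0.23 to 0.79) and Zfp639 by 0.37 (95% interval 0.15 to 0.59). Zfp248 lost its call without set 3 (0.31, adjusted p = 0.256) and Zfp639 without set 1 (0.27, adjusted p = 0.247). The median difference over the 79 genes was −0.0047 against 0.0061 for the 8589, and 41 of the 79 were below 0. The lower quartile was −0.32 against −0.13. Of the Zfp genes 16.46% were called lower and 3.8% higher, against 9.59% and 7.63% of the 8589. So with LPS alone the middle of the list did not shift, while its lower quartile lay below that of the 8589 genes.

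**Figure D4:**
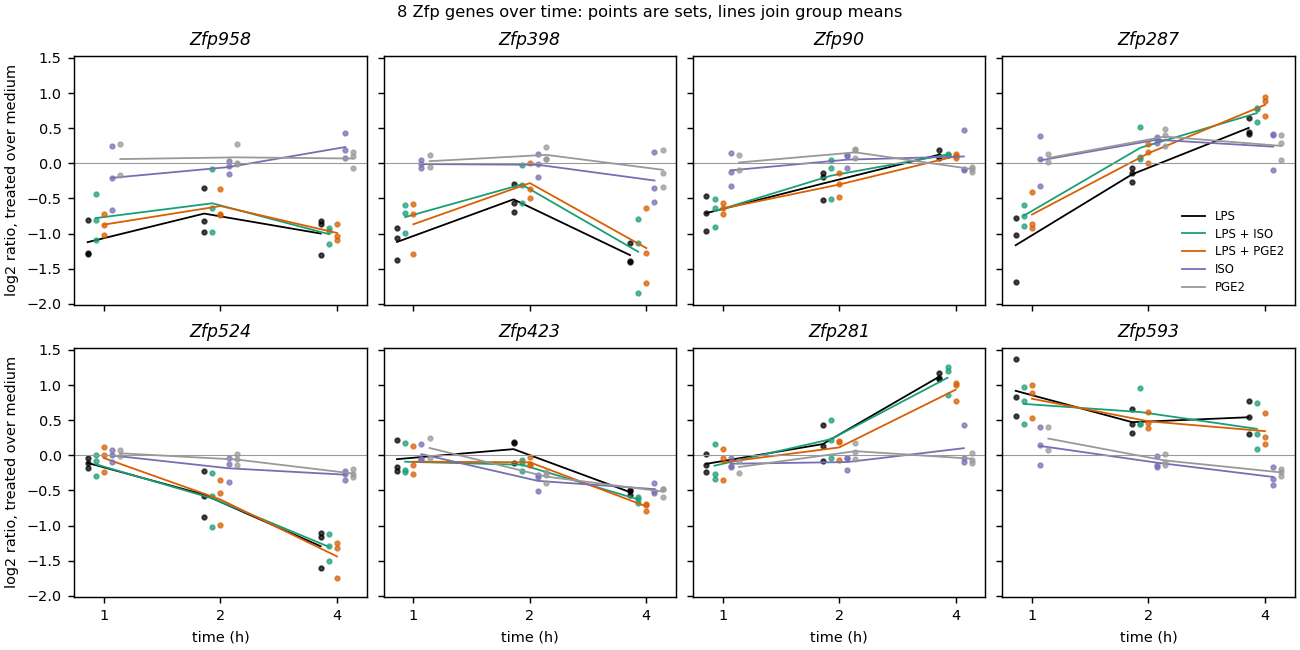
Log2 ratio of treated over medium at 1, 2 and 4 h for 8 Zfp genes in the 5 treatments; points are sets and lines join group means. With LPS, Zfp958 and Zfp398 stay below 0, Zfp90 returns to 0, Zfp287 crosses from −1.17 to 0.50, Zfp524 and Zfp423 fall late, Zfp281 rises late and Zfp593 is above 0 throughout.

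With ISO added to LPS, 23 Zfp genes were lower at 1 h and 1 higher (all genes: 3.27% and 4.15%), 14 lower and 2 higher at 2 h (6.15% and 7.7%), and 22 lower and 7 higher at 4 h (15.6% and 14.4%). The members' medians were −0.14, −0.12 and −0.08 at 1, 2 and 4 h. At 1 h the count rested on set 3, without which 9 genes were called. At 2 h it fell to 10 without set 2 and to 7 without set 3. Fitted on the sets of each group alone, limma called 0, 0 and 5 members, with 27, 21 and 26 at an unadjusted p under 0.05.

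The lowest gene at 1 h with LPS and ISO was Zfp94, at −0.58, −0.78 and −0.98 (mean −0.78 ± 0.20, SD, n = 3; adjusted p = 0.00681), which without set 3 gave −0.68 (adjusted p = 0.116). Zfp958 followed at −0.78 ± 0.33 (SD, n = 3), Zfp398 at −0.76 ± 0.20 (SD, n = 3) and Zfp287 at −0.74 ± 0.15 (SD, n = 3). Zfp398 lost its call without set 3 (−0.65, adjusted p = 0.0656). Zfp593 was again the highest at 0.97, 0.45 and 0.77 (mean 0.73 ± 0.26, SD, n = 3; adjusted p = 0.000203). At 2 h Zfp346 was lowest at −0.95, −0.67 and −0.50 (mean −0.71 ± 0.23, SD, n = 3; adjusted p = 4.32e-06), followed by Zfp467 at −0.63 ± 0.18 (SD, n = 3), Zfp810 at −0.62 ± 0.21 (SD, n = 3) and Zfp524 at −0.61 ± 0.39 (SD, n = 3), which without set 1 gave −0.41 (adjusted p = 0.0501). At 4 h Zfp524 was lowest at −1.50, −1.11 and −1.29 (mean −1.30 ± 0.19, SD, n = 3; adjusted p = 1.07e-10). Zfp281 was highest at 1.25, 0.86 and 1.20 (mean 1.10 ± 0.21, SD, n = 3; adjusted p = 1.55e-10).

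With PGE2 added to LPS, 23 Zfp genes were lower and 2 higher at 1 h (all genes: 2.99% and 4.7%), 14 lower and 2 higher at 2 h (5.77% and 7.49%), and 20 lower and 7 higher at 4 h (16.5% and 15.2%). The medians were −0.15, −0.09 and −0.05. Without set 3 the count at 1 h was 9, and at 2 h it was 8 without set 1 and 8 without set 3; set 1 at 2 h had 24.1% of the members' values at 0. Fits on the sets of each group alone called 0, 0 and 10 members, with 33, 21 and 25 at an unadjusted p under 0.05.

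At 1 h with LPS and PGE2, Zfp958 gave −0.72, −0.88 and −1.02 (mean −0.87 ± 0.15, SD, n = 3; adjusted p = 9.12e-05). Zfp398 gave −0.58, −1.29 and −0.73 (mean −0.87 ± 0.37, SD, n = 3; adjusted p = 0.000469), and Zfp287 gave −0.40, −0.86 and −0.92 (mean −0.73 ± 0.28, SD, n = 3; adjusted p = 0.000137). Zfp94 was at −0.84 ± 0.08 (SD, n = 3; adjusted p = 0.00368), and at −0.80 (adjusted p = 0.0554) without set 3. The higher genes were Zfp593 at 0.81 ± 0.24 (SD, n = 3) and Zfp109 at 0.54 ± 0.39 (SD, n = 3; 0.41 and adjusted p = 0.288 without set 3). At 2 h the lowest were Zfp810 at −0.71 ± 0.17 (SD, n = 3), Zfp788 at −0.70 ± 0.12 (SD, n = 3) and Zfp346 at −0.70 ± 0.20 (SD, n = 3). At 4 h Zfp524 was at −1.74, −1.25 and −1.32 (mean −1.44 ± 0.26, SD, n = 3; adjusted p = 1.07e-11), a 2.71-fold fall and the lowest mean of any Zfp gene in the 15 groups. Zfp281 was at 0.93 ± 0.14 (SD, n = 3) and Zfp287 at 0.83 ± 0.14 (SD, n = 3), both in all 3 sets above 0.

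The test of 1 h against later called 7 Zfp genes lower and 5 higher with LPS and ISO (all genes: 6.84% and 6.03%), and 9 lower and 7 higher with LPS and PGE2 (7.13% and 6.9%). Without set 1 these counts of 12 and 16 were 6 and 9, and without set 3 the second was 7. Zfp287 led both, at −1.21 (95% interval −1.53 to −0.90) and −1.22 (95% interval −1.53 to −0.90). Zfp524 was the most strongly higher at 1 h than later, by 0.83 (95% interval 0.53 to 1.13) with ISO and 0.99 (95% interval 0.70 to 1.29) with PGE2. Zfp276, not called at 1 h with LPS alone, differed by −0.66 with ISO (adjusted p = 0.00404) and by −0.55 with PGE2 (adjusted p = 0.0173). Both calls ended without set 1, at −0.39 (adjusted p = 0.264) and −0.27 (adjusted p = 0.42). It was chosen for mention after its values were seen. The members' median difference with LPS and ISO was 0.0092 against 0.0109 for the 8589 genes, with 48.1% below 0 against 47.61%. With LPS and PGE2 it was −0.0727 against 0.0097, with 60.76% below 0 against 47.86%.

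The response of the Zfp genes to LPS with ISO or PGE2 was tested as the difference of each combination from LPS alone at the same time. The labels name the lipid binding protein for LPS alone and not for the combinations. By the labels, an effect of ISO or PGE2 therefore cannot be told apart from that of the binding protein. Limma called 0 of the 79 genes in all 6 comparisons, with 2, 4 and 3 at an unadjusted p under 0.05 for ISO at 1, 2 and 4 h and 3, 0 and 2 for PGE2. Of all genes, 0.019%, 0.0% and 0.0951% were called for ISO and 0.0%, 0.0% and 0.0285% for PGE2. By the same fit, 629, 308 and 351 of all 10518 genes had an unadjusted p under 0.05 for ISO, and 484, 242 and 424 for PGE2. The differences ran from −0.38 to 0.42 with ISO and from −0.34 to 0.49 with PGE2, and the 95% interval of a typical member reached 0.30 to either side. At 1 h Zfp287 was 0.42 above LPS alone with ISO (95% interval 0.06 to 0.78; adjusted p = 0.814) and 0.44 above it with PGE2 (95% interval 0.07 to 0.80; adjusted p = 1). Zfp87 was 0.37 above with ISO (95% interval 0.14 to 0.60) and 0.35 above with PGE2 (95% interval 0.13 to 0.58), adjusted p = 0.814 and 1. The 2 combinations are set against the same LPS sets. No member passed here, so Zfp287, Zfp87 and Zfp281 were picked after the values were seen. With LPS alone Zfp287 was the lowest member at 1 h and Zfp281 the highest at 4 h. Such a choice by itself favours a difference toward 0. The intervals are not adjusted for the number of genes. For Zfp281 at 4 h the intervals were −0.31 to 0.28 with ISO and −0.48 to 0.11 with PGE2. These intervals treat the sets as separate, and a change smaller than they span could not be seen.

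**Figure D5:**
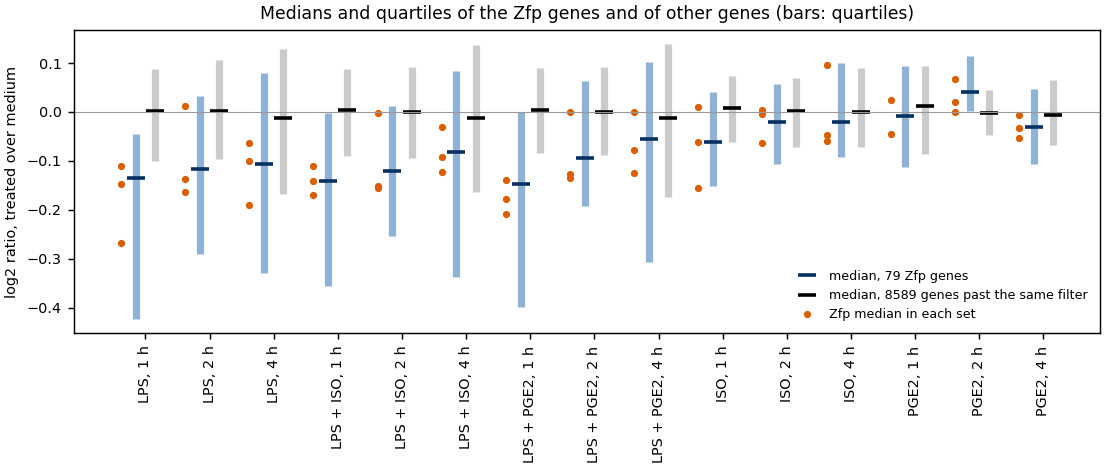
Median (dashes) and quartiles (bars) of the log2 ratio over the 79 Zfp genes (blue) and the 8589 genes past the same filter (grey) in the 15 groups, with the Zfp median of each set as an orange point. All 9 set medians of the LPS-containing groups at 1 h lie below 0, from −0.27 to −0.11; those of ISO or PGE2 alone lie on both sides of 0.

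ISO alone gave few calls among the Zfp genes. At 1 h, 1 gene was lower and 0 were higher (all genes: 0.19% and 0.713%). The members' median there was −0.06 against 0.01 for the 8589 genes, at 0.01, −0.16 and −0.06 in sets 1, 2 and 3. Of the 79 genes, 54 (68.35%) had a mean below 0, against 46.29% of the 8589. Whether the list as a whole shifted with ISO was not tested. By limma 10 members had an unadjusted p under 0.05, beside 1037 of all 10518 genes. At 2 h, 2 were lower and 0 higher (0.827% and 0.884%), with 10 members and 1092 of all genes at such a p. At 4 h, 2 were lower and 1 higher (1.48% and 1.87%). The gene at 1 h was Zfp275, at −0.80, −1.05 and −0.85 (mean −0.90 ± 0.13, SD, n = 3; adjusted p = 0.0486). It stayed lower in value but not past the threshold with any 1 set left out, from −0.95 to −0.83 (adjusted p = 0.128 to 0.359). In the groups given LPS with ISO it was at −0.37 ± 0.36 (SD, n = 3) at 1 h, and at 0.89 ± 0.50 (SD, n = 3) at 4 h, where it lost its call without set 2 (0.70, adjusted p = 0.063).

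The gene most often moved without LPS was Zfp423. With ISO it measured 0.17, −0.06 and −0.06 at 1 h, −0.51, −0.28 and −0.30 at 2 h, and −0.40, −0.53 and −0.51 at 4 h. The 2 h mean of −0.36 ± 0.13 (SD, n = 3; adjusted p = 0.00532) lost its call without set 1 (−0.29, adjusted p = 0.219), and the 4 h mean of −0.48 ± 0.07 (SD, n = 3; adjusted p = 0.000179) did not. With PGE2 it measured −0.48, −0.59 and −0.48 at 4 h (mean −0.52 ± 0.06, SD, n = 3; adjusted p = 0.000121). At 4 h all 3 sets were below 0 with every treatment, the means being −0.52 with LPS, −0.63 with LPS and ISO, and −0.73 with LPS and PGE2. The difference of 1 h from later with ISO was 0.44 (95% interval 0.25 to 0.63; adjusted p = 0.0335), the 1 call among members (all genes: 0.0761% lower and 0.181% higher), and it lost the call with any 1 set left out, at 0.35 to 0.48. The other calls with ISO alone were Zfp654 at 2 h, at −0.33 ± 0.11 (SD, n = 3), Zfp580 at 4 h, at −0.37 ± 0.19 (SD, n = 3), and Zfp2 at 4 h, at 0.43 ± 0.17 (SD, n = 3). All 3 lost the call with set 1 left out, at −0.27, −0.28 and 0.37 (adjusted p = 0.424, 0.0988 and 0.179).

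PGE2 alone called 0 Zfp genes at 1 h (all genes: 0.124% lower and 0.2% higher) and 0 at 2 h (0.219% and 0.238%). By limma 7 and 4 members had an unadjusted p under 0.05, beside 1007 and 574 of all 10518 genes. At 4 h PGE2 called Zfp423 alone (0.599% and 0.542%). No member differed between 1 h and later with PGE2 by limma, where 0.0% of all genes passed. There 6 members had an unadjusted p under 0.05, beside 935 of all genes. The 2 h group without LPS holds the set whose 2 arrays correlated at −0.59. There the members' median was 0.04, with 19 of the 79 below 0.

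By role, 6 of the 24 listed DNA-binding factors were measured, among them Zfp110 (NRIF), which is known to carry KRAB domains although the list was drawn up for factors without one. With LPS 1 of the 6 was lower at 1 h (Zfp292), 2 at 2 h (Zfp148 at −0.28 and Zfp64 at −0.33) and 2 at 4 h (Zfp423 at −0.52 and Zfp64 at −0.38), when Zfp281 was higher at 1.12. Zfp148 lost its call without set 1 (−0.25, adjusted p = 0.1) and without set 3 (−0.24, adjusted p = 0.105). Zfp64 lost its 2 h call with any 1 set left out, from −0.38 (adjusted p = 0.0809) without set 2 to −0.26 (adjusted p = 0.338) without set 1. Its 4 h call ended without set 2 (−0.30, adjusted p = 0.126) and without set 3 (−0.37, adjusted p = 0.06). Of the members tied to RNA, ribosomes, ubiquitin or the spindle, 8 of the 15 listed were measured. Zfp346 was lower and Zfp593 higher at all 3 times with LPS, the 2 h call of Zfp593 ending without set 1 (0.38, adjusted p = 0.149). Zfp326 was lower at 4 h at −0.36 ± 0.24 (SD, n = 3), without set 3 at −0.27 (adjusted p = 0.0766), and Zfp207 (BuGZ, a spindle protein) was higher by 0.14, a value that lost its call with any 1 set left out. None of the 8 listed genes of imprint and retroelement silencing was among the members kept. Across all 15 groups, 54 of the 79 genes were called at least once, 20 in 5 or more groups and 25 in none. Of all genes 48.2% were called at least once and 13.2% in 5 or more groups. Among the 8589 past the filter these shares were 56.2% and 16.1%, against 68.4% and 25.3% of the Zfp genes. Zfp53, Zfp346, Zfp788, Zfp810 and Zfp958 were lower in all 9 groups with LPS. Of those 45 calls, 32 held with any 1 set left out, from 5 of 9 for Zfp53 to 7 of 9 for Zfp788, Zfp810 and Zfp958.

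Among members that lie next to each other in RefSeq's gene order, 2 of 9 pairs had the same calls at 1, 2 and 4 h after LPS and 7 did not. The same share for members that are not neighbours was not taken. Whether neighbours respond more or less alike than other members was therefore not tested. The 9 pairs hold 15 members, 6 of which were lower at 1 h. Zfp35 and Zfp24 were both lower at 1 h alone, at −0.42 and −0.29, although the call of Zfp35 ended without set 1 (−0.15, adjusted p = 0.74), as did that of Zfp24 (−0.28, adjusted p = 0.155). Zfp112 and Zfp235 were called at no time. In the run of Zfp54, Zfp51 and Zfp53 the 1 h values were −0.67, −0.07 and −0.73, the middle gene not passing. In the run of Zfp111, Zfp109, Zfp108 and Zfp93 they were −0.33, 0.05, 0.07 and −0.55, and Zfp93 was the one that passed. Zfp54 lost its call without set 3 (−0.57, adjusted p = 0.073) and Zfp93 without set 1 (−0.41, adjusted p = 0.233).

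Of the partners of KRAB proteins, 18 genes of 23 listed for the Trim28 corepressor and its chromatin partners were measured. At 1 h after LPS, 2 were lower and 1 higher, beside 5.86% and 5.58% of the 8589 genes past the filter. At 2 h, 1 was lower and 3 higher, beside 8.37% and 10.7%, and at 4 h, 3 were lower and 1 higher, beside 19.9% and 17.3%. At 4 h with LPS and ISO 5 were lower and 2 higher (19.0% and 17.5%), and with LPS and PGE2 5 were lower and 3 higher (20.0% and 18.2%). The 4 h calls with LPS alone were Uhrf1 at −1.10 ± 0.15 (SD, n = 3), Dnmt1, the maintenance DNA methyltransferase, at −0.78 ± 0.06 (SD, n = 3), Cbx3 (HP1 gamma) at −0.67 ± 0.25 (SD, n = 3), and Daxx, a histone chaperone, at 2.72 ± 0.30 (SD, n = 3). Further genes were listed by symbol alone, after the names of other zinc-finger families. At 1 h after LPS, 3 of 16 Zbtb genes were lower and 1 higher, and 2 of 7 Zscan and Zkscan genes were lower and 0 higher. Of 12 Klf genes 0 were lower and 1 higher, and of 5 Sp genes 1 was lower and 0 higher, beside the same 5.86% and 5.58%. The lower Sp gene was Sp100 (−0.29, limma adjusted p = 0.0365), which matched by symbol and is not an Sp zinc-finger factor. In the same way the Zbtb list took in Zbtb8os. The medians of these lists at 1 h were −0.09, −0.11, 0.06 and −0.10, beside −0.13 for the 79 Zfp genes. Whether the Zfp genes differ from the listed genes was not tested.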

How the data were processed

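Gene expression was measured on custom Agilent 2-colour arrays, treated against medium RNA. The deposited table holds the authors' processed log2 ratios, 1 column for each of 88 arrays; scanner values were not used here. Scale and direction were read from the values: the largest is 6.64, log2 of 100, reached 17 times, and ratios were turned by the dyes the labels name. How background and dyes were corrected is not stated in the sources used. Arrays have no read depth; their number limits precision.

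Of 16281 probes, 13738 had 1 gene and 13694 of these were matched to current RefSeq symbols; 478 probes with 1 gene were 0 on every array, and 13260 probes of 10518 genes were used. Probes of a gene were averaged, then the 2 arrays of a set. Limma 3.58.1 (R 4.3.3) fitted 15 group means on the 44 sets with 1 common spread estimate (29 residual and 2.68 prior degrees of freedom), and the script was tested on simulated data. Members and gene lists were chosen with earlier results of these data known. Genes named are the 4 lowest and 2 highest called with 1 sign in each group, the 3 lowest and 3 highest differences of 1 h from later, those called in at least 5 groups, called role-list members, and others stated as such. The lists cover DNA-binding factors, RNA and ribosome proteins, imprint silencing and KRAB corepressors. Others hold genes whose symbol is Zbtb, Zscan, Zkscan, Klf or Sp and a number. Sequences and gene order are RefSeq's (GRCm38.p6); the array's build is not named. Alternatives left out a set, took 0 as missing, recentred arrays, used 1 probe, 1 dye orientation, only filtered genes, only the compared groups, or the set number as a replicate block.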

Additional observations from a re-analysis of the deposited data

Results flagged for a closer look

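The response at 1 h differed from that at 2 and 4 h, by the test of that difference in limma, for 16 Zfp genes with LPS, 12 with LPS and ISO, 16 with LPS and PGE2 and 1 with ISO alone. Each value here is the log2 ratio at 1 h minus the mean of 2 and 4 h. Zfp287 was lower at 1 h in all 3 treatments with LPS, by −1.34 with LPS, −1.21 with ISO added and −1.22 with PGE2 added. Zfp275 gave −1.04, −1.17 and −0.91, and Zfp281 gave −0.76, −0.81 and −0.62, in the same order. Zfp524 was higher at 1 h, by 0.82, 0.83 and 0.99, and so was Zfp248, by 0.51, 0.56 and 0.52. Zfp639 was higher by 0.37 with LPS and by 0.41 with LPS and PGE2, and Zfp326 by 0.33 with LPS and ISO. Without set 1 Zfp326 was at 0.19 (adjusted p = 0.518), and without set 3 its call ended too (0.34, adjusted p = 0.149). Zfp248 lost its calls without set 3, at 0.31, 0.47 and 0.41. Zfp423 was higher by 0.44 with ISO alone. With any 1 set left out, 4 of the 16 calls with LPS, 5 of the 12 with LPS and ISO, 3 of the 16 with LPS and PGE2 and 0 of the 1 with ISO held (limma). The 3 treatments with LPS may share medium RNA, and their values are given side by side only.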

How the results depend on the processing

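The count of members called moved most when only the groups of the comparison were fitted: to 0 for LPS, LPS and ISO, and LPS and PGE2 at 1 and 2 h, to 8, 5 and 10 at 4 h, to 6, 5 and 6 for 1 h against later, and to 0 for ISO at each time, PGE2 at 4 h and 1 h against later with ISO. With treated RNA in Cy3 only, the count was 14 for LPS and ISO at 1 h, 10 for 1 h against later with LPS and PGE2, 2 for PGE2 at 4 h, and 0 for ISO at 1 h and for 1 h against later with ISO; with Cy5 only it was 4 for PGE2 at 2 h and 1 for 1 h against later with PGE2. ISO at 1 h fell to 0 after recentring and with 1 probe. With 1 set left out, counts at 1, 2 and 4 h ran 17 to 26, 11 to 18 and 23 to 25 with LPS, 9 to 22, 7 to 11 and 23 to 26 with LPS and ISO, 9 to 20, 8 to 13 and 22 to 29 with LPS and PGE2, 0 to 0, 0 to 2 and 1 to 4 with ISO, and 1 to 1 with PGE2 at 4 h; for 1 h against later they ran 6 to 15, 6 to 11, 7 to 12 and 0 to 0 with LPS, LPS and ISO, LPS and PGE2 and ISO. With the replicate block, LPS gave 24, 27 and 32 members and PGE2 at 2 h 1; 39 of 44 sets correlated best with their own number, a hint of pairing from the data that the labels do not give. Sets of different groups with the same number correlated at a median r of 0.09, with 148 of 301 over 0.1, and those with other numbers at −0.04, with 120 of 602. Of 836 alternative values of the 76 named ones, 721 kept their call and 115 lost it. None changed sign, but the genes named within a group were picked for having 1 sign in every set. For these, leaving out a set, or a fit that kept the same means, could not change the sign. Taking 0 as missing, or testing only filtered genes, moved none of the counts by over 1.5 times.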
